A study of Mus musculus with 30 samples.

Results

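Anisomycin was given to mouse embryonic fibroblasts (MEFs) without the stress kinase p38α, and the genes that still changed were read from 4 of the 30 2-colour arrays of the series. They were all arrays labelled as p38α knock out MEFs that were either untreated (2 arrays) or treated with 25 ng/ml anisomycin for 45 min (2 arrays). The cells were immortalised p38α-/- MEFs in exponential growth, and the paper's methods describe the 2 arrays of a group as biological replicates from independent experiments. On every array the sample carried the dye Cy5 and the same pool of 2 untreated wild type MEF cultures carried Cy3, so the pool and any bias between the dyes cancel in the difference between treated and untreated p38α-/- MEFs. The question was which genes were still induced or repressed by anisomycin when p38α was absent, and 2 further groups were set beside it: wild type MEFs with the same anisomycin treatment (2 arrays) and p38α-/- MEFs with 100 ng/ml TNFα for 45 min (2 arrays). Wild type MEFs given the p38 inhibitor SB203580 without a stress (2 arrays) served as another wild type control. How many p38α-/- and wild type lines were used is not given in the sources used here, so genotype and line cannot be told apart in any comparison with wild type MEFs.

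Anisomycin binds the ribosome and, at doses that slow protein synthesis only in part, acts as a strong trigger of the stress-activated MAP kinases p38 and JNK. These kinases phosphorylate transcription factors that sit ready on the promoters of immediate early genes, which are transcribed within minutes and need no new protein. Among the products of such genes are AP-1 factors such as Jun and Fos, phosphatases that switch the MAP kinases off again, and proteins that shorten the life of mRNAs. In fibroblasts JNK and ERK reach many of the same promoters as p38.

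Mapk14, the gene of p38α, is read by 1 probe. Against the wild type pool its log2 ratio was -0.94 on the first untreated p38α-/- array and -1.26 and -2.24 on the anisomycin arrays, while the spot on the second untreated array was marked as an outlier (value -1.98 when kept). On the wild type anisomycin arrays it was 0.32 and 0.05. Mapk14 therefore lay below the pool on every p38α-/- array and above it on the wild type ones, and across the series the 6 p38α-/- arrays with an unmarked spot spanned -2.24 to -0.94 against 0.05 to 1.31 on 16 wild type arrays. With anisomycin the p38α-/- MEFs lay 1.75 log2 units under the pool (-1.75, SE 0.24, limma adjusted p = 0.00159). A signal remained well above background in Cy5 on all 4 arrays, and whether the probe lies in the deleted part of the gene was not tested.

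The 10 fibroblast markers on the array (Col1a1, Col1a2, Col3a1, Fn1, Vim, Thy1, S100a4, Pdgfra, Pdgfrb and Sparc) were all well above background on the 4 arrays. Col1a2, Fn1, S100a4 and Sparc lacked a value on some of these arrays once outlier spots were left out and were not tested. Of the others 0 passed the test between anisomycin and untreated cells. The flag for signal well above background was also met by all 4 epithelial markers, all 4 leukocyte markers and 3 of 4 endothelial markers. It held for 83.2% to 95.3% of all probes on these arrays, so it does not separate cell types here. The second anisomycin array had the lowest share of probes above background (83.2%) and the fewest outlier spots (9.25%), against 16.5% to 24.7% outlier spots on the other 3 arrays. Outlier spots were left out, and their part in the results is given where it changes a value.

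Without p38α, few genes passed the test between anisomycin and untreated cells, and nearly all of those rose. With 2 arrays a group, a gene that did not pass is not shown to be unchanged. Of 16529 genes measured on the 4 arrays, 13 were higher (0.0786%) and 1 was lower (0.00605%) at a limma adjusted p under 0.05, with 556 genes at an unadjusted p under 0.05, of which 375 were higher and 181 lower. The 13 names stand for 12 genes, since 5530400B01Rik is a separate reading of Dusp8. They were Jun, Dusp1, Fos, Egr1, Dusp8 (with 5530400B01Rik), Btg2, Ier3, Zfp36, Gadd45b, Lrch3, Ier5l and Zcchc3, and the gene that fell was A030011A13Rik. On every one of these genes the 2 anisomycin values and the 2 untreated values did not overlap, which a call on these same 4 arrays favours. Of these genes 0 were saturated or below background throughout a group. The median difference over all genes was -0.0006 on the log2 scale, with an SD of 0.247 across genes, and 8198 genes lay above 0 and 8315 below it.

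**Figure D1:**
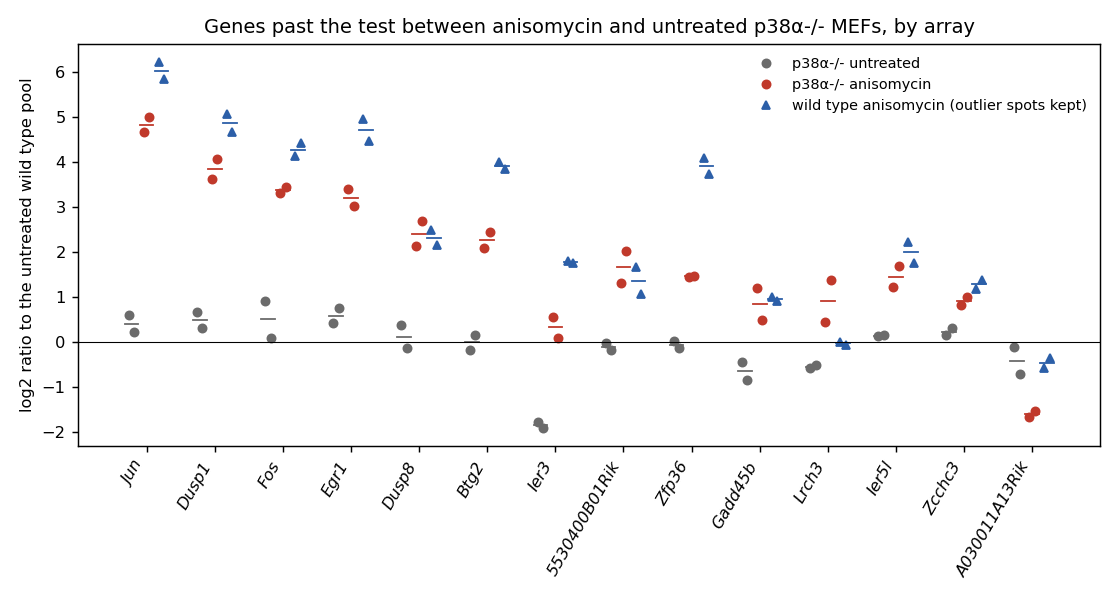
Log2 ratio to the untreated wild type pool (vertical axis) on each array for the 14 gene names past the test between anisomycin and untreated p38α-/- MEFs, with untreated p38α-/- arrays in grey, anisomycin p38α-/- arrays in red and wild type anisomycin arrays in blue with outlier spots kept; points are single arrays and short lines are means of 2. In p38α-/- MEFs the red points lie above the grey ones for 13 names and below them for A030011A13Rik, and Ier3 starts at -1.76 and -1.91 in untreated cells.

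The arrays were scanned on separate days in such a way that the first untreated and the first anisomycin array share a day, as do the second ones, which gives a difference within each day. A rise of at least 2-fold was seen for 251 genes in the first pair and for 122 in the second, but for 16 genes in both (0.0968% of those tested), and a fall of that size for 160 and 102 genes, with 5 in both (0.0302%). Across all genes the differences of the 2 pairs had a Pearson r of -0.0802 (across 16529 genes, which are not independent replicates). Of the 16 genes at 2-fold in both pairs, 12 passed the test. Most differences of 2-fold or more in 1 pair were thus not seen in the other. Of the 13 names that rose, 12 did so by at least 2-fold in both pairs, the exception being Zcchc3 (0.68 and 0.69). The test called these 13 names on the same arrays and favours a small spread. Their match between the pairs is therefore not independent of the choice.

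**Figure D2:**
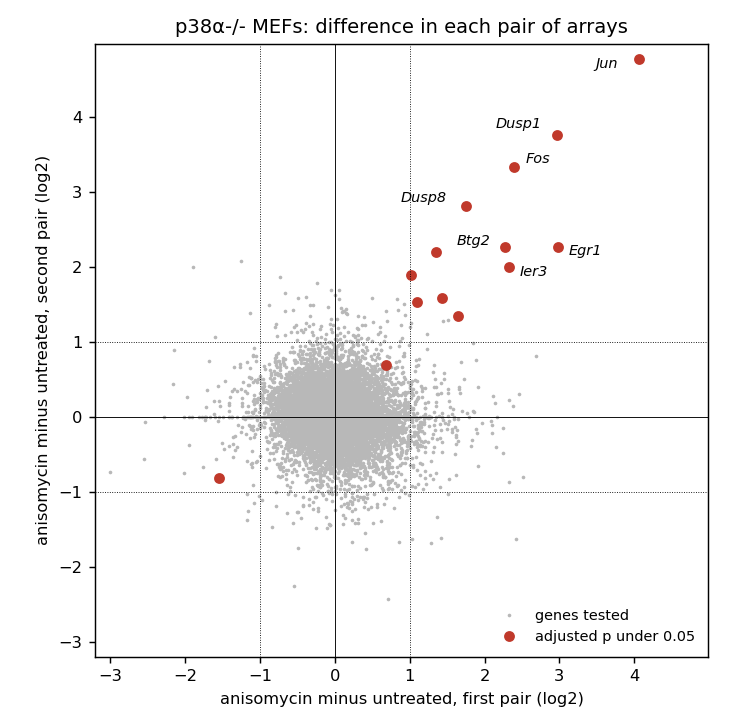
Anisomycin minus untreated on the log2 scale in the first pair of p38α-/- arrays (horizontal axis) and in the second pair (vertical axis), 1 point per gene, with the 14 names past the test in red and dotted lines at 2-fold. The cloud of all genes has no shared direction (r = -0.0802), and Jun lies at the far end with 4.06 and 4.78.

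The AP-1 subunits held the largest rise. Jun, whose product is the AP-1 subunit that JNK phosphorylates, had log2 ratios of 0.60 and 0.22 in untreated p38α-/- MEFs and of 4.66 and 5.00 with anisomycin. The 2 groups were far apart, and the difference was 4.42 log2 units (21.4-fold, SE 0.31, limma adjusted p = 5.13e-07). Fos, the classical dimer partner of Jun, went from 0.91 and 0.09 to 3.31 and 3.44, a difference of 2.87 (7.31-fold, SE 0.47, adjusted p = 0.0238). Between them the untreated values of Fos were the more scattered, and its anisomycin values nearly coincided. Over all genes 0.0786% rose, 0.00605% fell and 8198 of 16529 had a difference above 0. This gene list and those below were chosen with earlier results of these data known, so their counts beside all genes are descriptions only. Of the 15 AP-1 family genes on the array 11 were measured on all 4 arrays, of which 2 rose and 0 fell. A difference above 0 was seen for 10 of the 11, with a median of 0.71 against -0.0006 over all genes. Atf3, a stress-induced factor of the same family, had ratios of 0.10 and -0.16 untreated and 1.54 and 1.12 with anisomycin, which gave 1.36 (SE 0.22) and did not pass (adjusted p = 0.189), although it did with normexp, with the values of the series matrix and with the replicate block on outlier spots kept. Jund1, the AP-1 subunit known for its steady expression, gave 1.14 (SE 0.23, adjusted p = 0.300).

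The next group was that of other early transcription genes. Egr1, a zinc finger factor that serum and stress induce through MAP kinases, had ratios of 0.42 and 0.76 in untreated cells and 3.40 and 3.02 with anisomycin. Its groups did not overlap, and it rose by 2.62 log2 units (6.16-fold, SE 0.36, limma adjusted p = 0.00592). Ier3, an early gene linked to the survival of stressed cells, was the only riser that began far under the wild type pool, at -1.76 and -1.91, and it reached 0.56 and 0.10 with anisomycin. This was a rise of 2.17 (4.49-fold, SE 0.30, adjusted p = 0.0365) that ended 0.33 above the pool, so the ratio of the treated arrays alone does not show it. Untreated p38α-/- MEFs lay 1.83 log2 units under the pool for Ier3 (-1.83, SE 0.21, adjusted p = 5.77e-04). Ier5l, a little studied relative of the early gene Ier5, rose by 1.31 (SE 0.18, adjusted p = 0.00524) from 0.14 and 0.15 to 1.23 and 1.68. Its 2 probes rose by 1.14 and 1.47, and with the brightest probe alone the gene did not pass (1.14, adjusted p = 0.098). Of the 28 listed genes 22 were measured, 3 rose and 0 fell, against 0.0786% and 0.00605% of all genes. A difference above 0 was seen for 21 of the 22, against 8198 of 16529 over all genes, with a median of 0.52. Klf6, a zinc finger factor, gave 1.40 (SE 0.28, adjusted p = 0.394) with values of 0.30 and -0.07 untreated and 1.81 and 1.23 treated.

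Phosphatases that dampen MAP kinases rose as well. Dusp1, the phosphatase that removes the activating phosphates of p38 and JNK, had ratios of 0.66 and 0.31 in untreated p38α-/- MEFs and 3.63 and 4.07 with anisomycin. The rise of 3.36 log2 units (10.3-fold, SE 0.21, limma adjusted p = 1.66e-05) was the largest after Jun. Dusp8, a phosphatase of the same family with JNK and p38 as known substrates, went from 0.38 and -0.14 to 2.13 and 2.68, a difference of 2.28 (4.87-fold, SE 0.27, adjusted p = 0.00118). The separate probe named 5530400B01Rik, which the present annotation places in Dusp8, rose by 1.78 (SE 0.27, adjusted p = 0.0311), so 2 probes of this gene moved the same way. Among the 18 listed dual specificity phosphatases, Sprouty proteins and other feedback genes, 14 were measured. Of these, 3 names rose (0.0786% over all genes) and 0 fell. A difference above 0 was seen for 13 of the 14, against 8198 of 16529 over all genes, and the median was 0.51. Spry1, an inhibitor of growth factor signalling, gave 0.84 (SE 0.16) without passing (adjusted p = 0.350).

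Regulators of mRNA decay and of cell division followed. Btg2, an antiproliferative protein that recruits the deadenylase complex to mRNAs, had mean ratios of -0.18 and 0.17 in untreated p38α-/- MEFs and of 2.09 and 2.44 with anisomycin over its 3 probes. It rose by 2.27 (4.83-fold, SE 0.38, limma adjusted p = 0.0238), and the single probes rose by 2.06, 2.27 and 2.48. Zfp36, the AU-rich element binding protein that marks cytokine mRNAs for decay, stood at 0.03 and -0.13 untreated and at 1.45 and 1.46 with anisomycin. This was a rise of 1.51 (2.85-fold, SE 0.26, adjusted p = 0.0365), with 1.40 and 1.62 for its 2 probes. The group held 10 genes, of which 8 were measured, 2 rose (0.0786% over all genes) and 0 fell. A difference above 0 was seen for 5 of the 8, against 8198 of 16529 over all genes, with a median of 0.12. Zfp36l1, a relative of Zfp36, gave 0.65 (SE 0.23) and Tob1, an antiproliferative relative of Btg2, gave 0.25 (SE 0.25), and neither passed (adjusted p = 1.0 for both).

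Gadd45b was the single riser among the stress and growth arrest genes. It encodes an early stress protein that binds MAP kinase kinases, and its ratios were -0.45 and -0.85 in untreated p38α-/- MEFs and 1.20 and 0.50 with anisomycin. The rise was 1.49 (2.82-fold, SE 0.23, limma adjusted p = 0.0143), and untreated p38α-/- MEFs lay under the pool for this gene (-0.65, SE 0.17, adjusted p = 0.0137). Of 23 listed genes 13 were measured, with 1 riser (0.0786% over all genes) and 0 that fell. A difference above 0 was seen for 12 of the 13, against 8198 of 16529 over all genes, with a median of 0.28. Plk3, a polo-like kinase of the stress response, gave 1.15 (SE 0.42) and Trib1, a pseudokinase, gave 0.87 (SE 0.30), and neither passed (adjusted p = 1.0 for both).

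The remaining 3 names belonged to no list. Zcchc3, which encodes a zinc finger protein of the antiviral nucleic acid response, had ratios of 0.15 and 0.30 untreated and of 0.83 and 1.00 with anisomycin. Its difference of 0.69 (1.61-fold, SE 0.12, limma adjusted p = 0.0365) was the smallest of the 14. Lrch3, a leucine-rich repeat protein, went from -0.57 and -0.51 to 0.44 and 1.38, a difference of 1.46 (SE 0.25, adjusted p = 0.0311). Its spot on the second anisomycin array was not well above background, and with normexp background correction the difference was 0.59 and did not pass (adjusted p = 0.108). A030011A13Rik, an uncharacterised transcript, was the only name that fell, from -0.12 and -0.72 to -1.66 and -1.54, a difference of -1.18 (SE 0.22, adjusted p = 0.0428) that shrank to -0.40 with normexp and did not pass.

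How far the 14 calls rest on the error estimate was read from smaller fits. The spread behind these p-values was shared over all 30 arrays, and with the 8 p38α-/- arrays alone only Jun (adjusted p = 0.0201) and Dusp1 (adjusted p = 0.0325) passed, while with the 4 arrays alone 0 genes passed by limma (213 higher and 136 lower at an unadjusted p under 0.05). Left out in turn, the 4 arrays gave between 5 and 12 higher genes: 5 without the first and 5 without the second untreated array, 8 without the second anisomycin array and 12 without the first. Of these, 4, 4, 5 and 6 in the same order were among the 13. Jun, Dusp1 and Dusp8 passed without any single array, whereas Fos, Btg2, Ier3, Zfp36 and Zcchc3 passed in none of these 4 fits, with the highest adjusted p between 0.268 and 0.503. The differences themselves kept their direction for all 14 names in every setting that gave a value, which leaves out the series matrix for Lrch3.

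Sequences before the gene start are shown for the risers that hold 1 of 3 motifs of early genes. They do not all hold the same motif. The motifs searched on both strands were TGACGTCA (the cyclic AMP response element, which ATF and CREB factors bind), TGANTCA (the AP-1 site) and the CArG box (the serum response factor site). The windows hold 250 bases before and 50 after each start. TGACGTCA and TGANTCA cannot match the same bases. Of the 12 genes that rose, 11 had a window in the RefSeq promoter table (GRCm38.p6), with Egr1 missing. TGACGTCA was found in 3 of the 11 (Dusp1, Dusp8 and Btg2), against 1.79% of all 32851 windows and 2.03% of the 27025 genes in the table. The CArG box was found in 1 (Zfp36), against 1.63% of windows, and TGANTCA in 0, against 7.81% of windows. Counted from the first base of the match, Dusp8 holds TGACGTCA at 2 places, 107 and 63 bases before its start, Dusp1 at 143 and Btg2 at 166 bases before, and Zfp36 has its CArG box 58 bases before the start. A match is a description of letters, and binding was not measured. The 200 bases before each start are given 5′ to 3′ on the strand of the gene, with the motif in capitals, for Dusp1 (chr17:26508473-26508672, minus strand), Dusp8 (chr7:142095285-142095484, minus strand), Btg2 (chr1:134079156-134079355, minus strand) and Zfp36 (chr7:28379229-28379428, minus strand).
Dusp1: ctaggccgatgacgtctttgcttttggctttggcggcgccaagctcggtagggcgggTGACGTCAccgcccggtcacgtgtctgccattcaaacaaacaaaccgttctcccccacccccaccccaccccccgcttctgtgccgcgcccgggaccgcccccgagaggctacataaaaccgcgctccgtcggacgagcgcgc
Dusp8: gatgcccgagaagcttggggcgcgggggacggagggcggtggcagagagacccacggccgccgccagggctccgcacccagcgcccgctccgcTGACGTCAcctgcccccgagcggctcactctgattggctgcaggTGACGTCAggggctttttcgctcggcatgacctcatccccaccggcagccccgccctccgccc
Btg2: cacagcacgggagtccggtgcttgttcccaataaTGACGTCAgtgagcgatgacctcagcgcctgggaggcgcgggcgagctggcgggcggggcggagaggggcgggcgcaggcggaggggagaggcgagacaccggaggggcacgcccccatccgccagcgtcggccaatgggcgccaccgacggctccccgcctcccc
Zfp36: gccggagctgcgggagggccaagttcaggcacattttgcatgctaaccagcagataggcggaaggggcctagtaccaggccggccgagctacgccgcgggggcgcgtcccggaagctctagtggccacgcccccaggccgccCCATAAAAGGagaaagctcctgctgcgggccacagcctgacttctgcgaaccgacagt

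No gene of the other 7 lists passed the test in p38α-/- MEFs, and the lowest limma adjusted p among their members was 0.464 (Rhob). Over all genes 0.0786% rose and 0.00605% fell. At these shares 0 calls is the usual count for lists of 13 to 67 measured genes, so it does not set these lists apart. Among 24 measured inflammation genes (33 on the array) 0 passed and the median difference was 0.10. Tnfaip3, the ubiquitin-editing inhibitor of NF-κB, had ratios of 0.64 and -0.25 untreated and 1.21 and 0.59 with anisomycin, values that overlap between the groups (0.71, SE 0.34, adjusted p = 1.0). Ptgs2, the inducible cyclooxygenase, had 0.74 and 0.12 untreated and 0.96 and 0.69 treated, which also overlap (0.40, SE 0.52, adjusted p = 1.0). In the group of growth factor and surface genes 0 of 18 passed, with a median of 0.13. Rhob, a small GTPase of the endosome and cytoskeleton, already stood at 1.74 and 1.15 in untreated p38α-/- MEFs and reached 2.66 on both anisomycin arrays, a difference of 1.22 (SE 0.28, adjusted p = 0.464). Adamts1, a matrix protease, had the highest value of the group with 1.32 (SE 0.57, adjusted p = 1.0), at 1.89 in the first pair and 0.76 in the second, and its groups overlapped. The TGFβ and Id genes (13 measured, median 0.06), the kinases of the p38 and JNK pathways (19 measured, median -0.01, and above 0 with the values of the series matrix or with outlier spots kept) and the heat shock genes (14 measured, median -0.16) held 0 calls each.

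Genes of the translation machinery, the target of anisomycin, were read as 2 lists. Of 67 measured proteins of the cytosolic ribosome 0 passed the test, and 62 had a difference below 0, against 8315 of 16529 over all genes. The median was -0.23 with a range from -0.70 to 0.18. The median was -0.37 in the first pair and -0.13 in the second, and it stayed between -0.24 and -0.23 with normexp, with the values of the series matrix, with outlier spots kept and with arrays centred on their median. In the 59 of these genes that were also measured on the wild type anisomycin arrays, the p38α-/- median was -0.23 and the wild type median 0.03. The wild type value is a ratio to the pool in the other dye and not a difference from untreated arrays, so the 2 medians are unlike measures. The 43 measured translation factors were centred on 0.01, with 21 below 0, and their median turned to -0.02 with the values of the series matrix. Neither list's shift was tested.

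**Figure D3:**
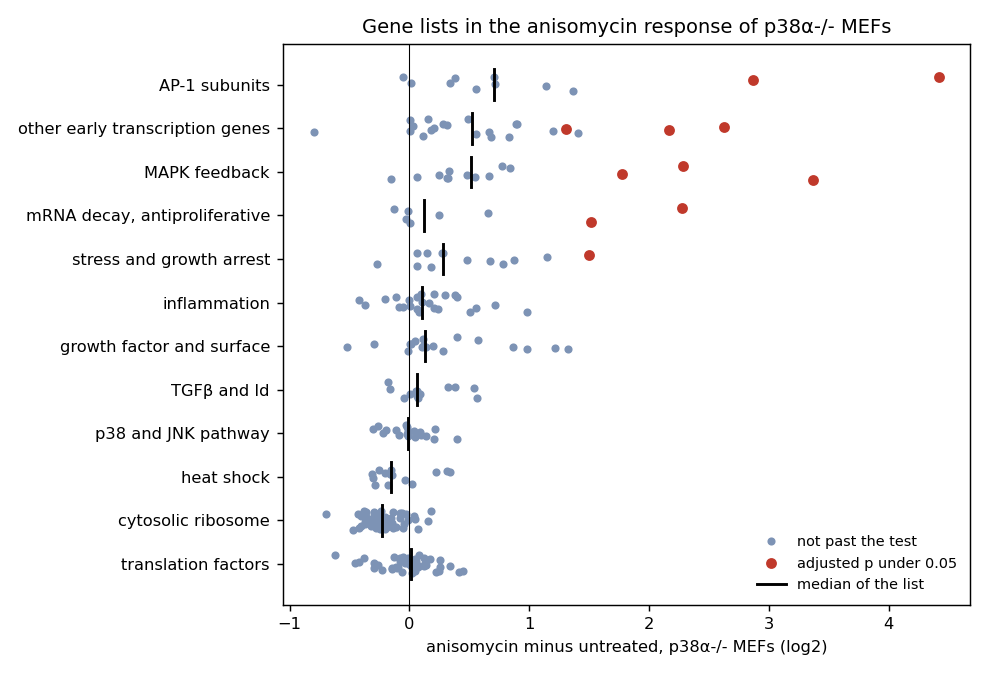
Anisomycin minus untreated in p38α-/- MEFs on the log2 scale (horizontal axis) for the measured members of 12 gene lists; each point is a gene, red points passed the test and black bars are list medians. The red points lie in the first 5 lists, and the cytosolic ribosome is the list with the lowest median (-0.23).

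The comparison with wild type MEFs asked which genes of the wild type response also rose without p38α. On the wild type arrays 60 of 15720 genes (0.382%) lay at least 2.5-fold over the pool with a limma adjusted p under 0.05. These arrays play no part in the p38α-/- difference itself, but both tests share 1 error estimate per gene and favour a small spread. The share called is therefore not independent of the choice. Of the 59 genes measured in p38α-/- MEFs 6 names passed (10.2%, against 0.0786% of all genes): Jun, Btg2, Egr1, Dusp8, Ier5l and 5530400B01Rik. With the 8 p38α-/- arrays alone 1 of them passed by limma, and with the 4 arrays alone 0 did (17 at an unadjusted p under 0.05). The difference was above 0 for 50 of the 59, above 0 in both pairs for 35 and at least 2-fold for 8. Their median was 0.40 in p38α-/- MEFs against -0.0006 for all genes. The wild type median of 1.61 is not set against it, since the genes were chosen for high wild type values. Dusp8 was the gene with the most similar value in both genotypes, with 2.28 in p38α-/- MEFs and 2.48 and 2.15 on the wild type arrays. The 10 wild type genes with the highest means at 2.5-fold on both arrays were Jun, Btg2, Egr1, Rhob, Plk3, Epha2, Dusp8, Cxcl10, 3110018C07Rik and Ccl22. The name 3110018C07Rik stands for Spag9, a scaffold protein of JNK and p38, and Ccl22 is a chemokine. Of these 10, Jun, Btg2, Egr1 and Dusp8 passed in p38α-/- MEFs, and the other 6 gave between -0.19 (Ccl22) and 1.22 (Rhob). Ccl22 was not well above background on any of the 4 p38α-/- arrays. Several of these began above the pool in untreated p38α-/- MEFs: Rhob at 1.44 (adjusted p = 3.73e-04), Cxcl10, an interferon-induced chemokine, at 1.27 (adjusted p = 0.0386) and Epha2, an ephrin receptor, at 1.15 (adjusted p = 0.00908). The untreated arrays were uneven for Cxcl10 and Epha2, with 2.35 and 0.20 for Cxcl10 and 1.81 and 0.48 for Epha2, so most of each mean comes from the first array.

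**Figure D4:**
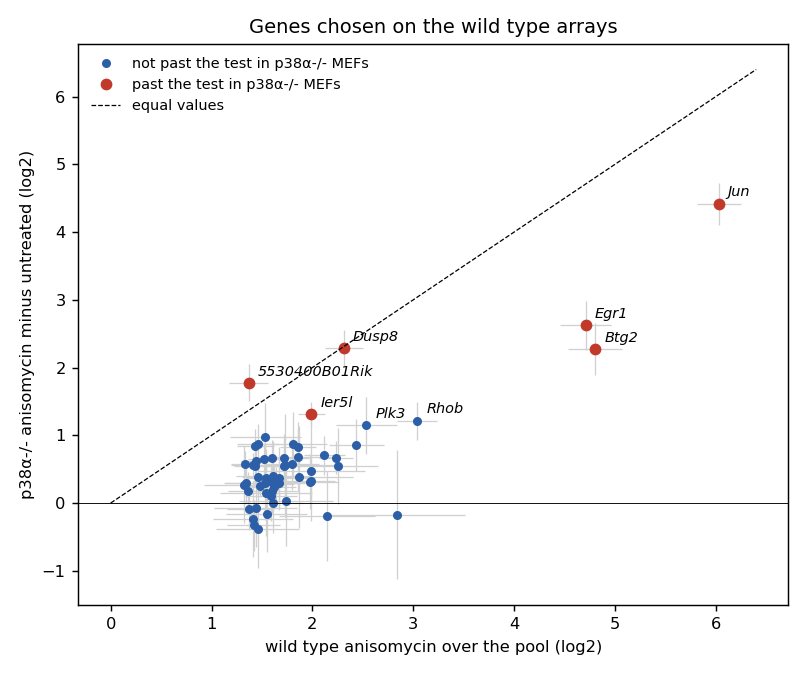
Anisomycin minus untreated in p38α-/- MEFs (vertical axis, log2) against wild type anisomycin over the pool (horizontal axis, log2) for 59 genes at 2.5-fold in wild type MEFs; bars are standard errors from the fit, red points passed the test in p38α-/- MEFs and the dashed line marks equal values. The genes were chosen on the horizontal axis, which favours points under the line, and the 6 red names are Jun, Egr1, Btg2, Dusp8, Ier5l and 5530400B01Rik.

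The difference of induction between genotypes was tested for each gene as the p38α-/- difference minus the wild type ratio to the pool. Among 14769 genes 18 were lower in p38α-/- MEFs (0.122%) and 58 were higher (0.393%) at a limma adjusted p under 0.05. Of the genes that rose in p38α-/- MEFs, Btg2 (-2.53, SE 0.47, adjusted p = 0.0311) and Egr1 (-2.09, SE 0.44, adjusted p = 0.0479) were lower there than in wild type MEFs, where Egr1 stood at 4.94 and 4.48. Jun gave -1.61 (SE 0.38) and did not pass (limma adjusted p = 0.0700), but it did with the replicate number as a block (adjusted p = 0.0322) and with outlier spots kept (adjusted p = 0.0154). Egr1 did not pass on shared probes (adjusted p = 0.0518). Among the others, Dusp8 gave -0.03 (SE 0.33, adjusted p = 0.980), Gadd45b 0.54 (SE 0.29, adjusted p = 0.386) and Ier5l -0.68 (SE 0.23, adjusted p = 0.164). Rhob was lower too (-1.83, SE 0.34, adjusted p = 0.0380). For Dusp1, Fos, Zfp36, Ier3, Atf3 and Klf6 at least 1 wild type spot was an outlier, so these genes could be compared only with such spots kept. Zfp36 then stood at 4.08 and 3.72 in wild type MEFs and was lower in p38α-/- MEFs (-2.39, SE 0.30, adjusted p = 4.6e-04), and Atf3 stood at 3.75 and 3.36 and was lower (-2.19, SE 0.32, adjusted p = 0.00113). Dusp1 was lower (-1.49, SE 0.32, adjusted p = 0.0101), whereas Fos (-1.40, adjusted p = 0.133), Ier3 (0.39, adjusted p = 0.50) and Klf6 (0.36, adjusted p = 0.584) did not pass, and the values of all 4 moved with another wild type control. For Btg2, 1 probe was an outlier on both wild type arrays and another on the second only, so the 2 wild type values rest on different sets of probes. With all spots kept its wild type values were 4.00 and 3.84 and its difference -1.65 (SE 0.20, limma adjusted p = 3.87e-04).

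This comparison depends on the wild type control, which is the pool in the other dye. A bias between the dyes cancels in the p38α-/- difference and stays in the wild type ratio. All 58 genes called higher in p38α-/- MEFs lay under the pool on average in wild type MEFs with anisomycin (median -0.89). They also did in untreated p38α-/- MEFs (median -0.77). The difference subtracts both of these ratios, so the choice of genes itself favours low values there. On all 24 arrays of other groups 39 of the 58 lay under the pool, and the share over all genes was not counted. Of the 58, 1 passed the test between anisomycin and untreated p38α-/- MEFs, and their median p38α-/- difference was 0.43. Among the 18 called lower, 2 passed that test and the median was -0.11. Of the 18 called lower, 17 lay above the pool in untreated p38α-/- MEFs, which the same subtraction favours. The part of the dyes in these calls was not tested. With wild type MEFs that received the inhibitor SB203580 alone as the wild type control, so that the pool cancels on both sides, 0 genes passed in either direction by limma, with 187 lower and 202 higher at an unadjusted p under 0.05. This control brings in any effect of the inhibitor itself and the error of a further group. Their part in the loss of calls was not tested. Jun then gave 0.23 in place of -1.61, since its ratio with SB203580 alone was 2.05 and 1.64, Egr1 gave -1.17 and Rhob -0.76 (adjusted p = 1.0 for all 3). Btg2 gave -2.67 (adjusted p = 0.419), and with outlier spots kept as well it was the only gene to pass (-1.81, SE 0.23, adjusted p = 0.00499), followed by Zfp36 (-2.14, adjusted p = 0.0897) and Atf3 (-2.14, adjusted p = 0.107). With this control and outlier spots kept, Dusp1 gave -0.64 and Fos turned to 0.92, as its ratios with SB203580 alone were 2.40 and 2.25. Ier3 turned to -0.04 and Klf6 to -0.08, and none of these 4 passed (adjusted p = 1.0 for each). The count of calls also moved widely with the processing: with the replicate number as a block 180 genes were lower and 260 higher, and with outlier spots kept 177 and 1385. Left out in turn, single arrays gave 1 to 75 lower and 5 to 132 higher genes, with the fewest without the first and the most without the second untreated p38α-/- array.

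Whether the anisomycin response of p38α-/- MEFs differed from another stress of the same length was tested directly against their TNFα arrays. Of 16069 genes 11 differed (0.0685%), 5 higher with anisomycin and 6 lower. Jun was higher with anisomycin by 1.81 (SE 0.31, limma adjusted p = 0.0254), with 2.71 and 3.33 on the TNFα arrays against 4.66 and 5.00. Dusp1 was higher by 2.20 (SE 0.21, adjusted p = 9.36e-04), with 1.40 and 1.89 against 3.63 and 4.07. Zcchc3 was higher by 0.86 (SE 0.12, adjusted p = 0.00433) and stood at -0.05 and 0.16 with TNFα, near its untreated values of 0.15 and 0.30. For these 3 genes, called on these same arrays, the anisomycin and TNFα values did not overlap. The first TNFα array was scanned on the day of the first anisomycin array, and the second on a day of its own. Without the first anisomycin array 57 genes differed, and with the 8 p38α-/- arrays alone 0 did by limma (468 at an unadjusted p under 0.05). The other 11 names called with anisomycin did not differ by this test, with adjusted p from 0.182 (Ier5l, 0.86, SE 0.18) to 1.0. Gadd45b (-0.38, SE 0.23), Ier3 (-0.48, SE 0.30) and Zfp36 (-0.64, SE 0.26) had the higher mean with TNFα. Id1, an inhibitor of helix-loop-helix factors, was higher with anisomycin by 1.46 (SE 0.22, adjusted p = 0.00802), and its TNFα values of -1.14 and -1.52 lay under the untreated ones of -0.06 and -0.43.

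The 6 genes lower with anisomycin than with TNFα were Ccl20, Cxcl10, Olfr1015, Tnfaip3, Ccl7 and Nfkbiz. Ccl20, a chemokine, stood at 0.45 and -0.48 with anisomycin and at 6.18 and 5.72 with TNFα (-5.97, SE 0.55, limma adjusted p = 3.9e-05). Tnfaip3 had 1.21 and 0.59 against 4.59 and 4.27 (-3.53, SE 0.34, adjusted p = 8.29e-05). Cxcl10 differed by -4.30, Olfr1015, an olfactory receptor gene, by -3.72, the chemokine gene Ccl7 by -3.37 and Nfkbiz, a nuclear regulator of NF-κB, by -2.99. None of these 6 genes passed the test between anisomycin and untreated p38α-/- MEFs, where their differences lay between -0.09 (Nfkbiz) and 0.71 (Tnfaip3). Ccl20, Olfr1015, Ccl7 and Nfkbiz were named after their values were seen.

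**Figure D5:**
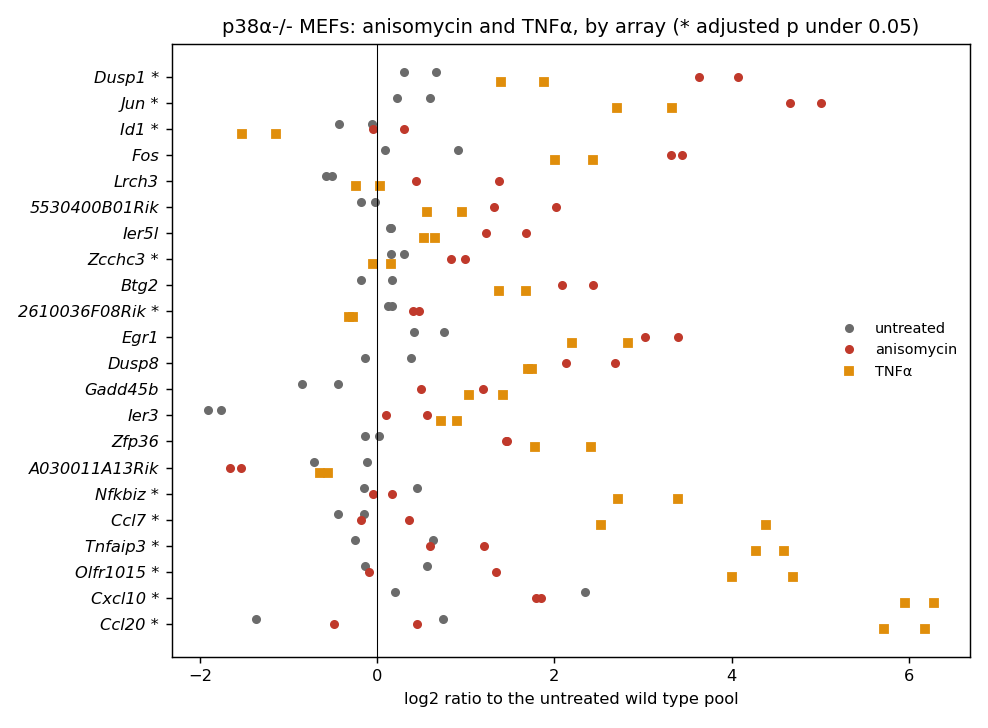
Log2 ratio to the untreated wild type pool (horizontal axis) on the untreated (grey), anisomycin (red) and TNFα (orange) arrays of p38α-/- MEFs, 2 points each, for the genes called with anisomycin or between the 2 stresses; an asterisk marks a limma adjusted p under 0.05 between anisomycin and TNFα. Jun and Dusp1 lie further right with anisomycin, and Ccl20, Cxcl10 and Tnfaip3 with TNFα.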

How the data were processed

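Gene expression was measured on 2-colour Agilent 44K arrays, 30 in 15 groups of 2, and groups and replicate numbers were taken from the array titles. The authors labelled the sample with Cy5 and the pool of 2 untreated wild type cultures with Cy3 on every array, without a dye swap. Per the file headers, the deposited log10 ratio of Cy5 over Cy3 came from Agilent Feature Extraction with spatial detrending and linear and LOWESS dye normalization, and no local background subtraction. The headers name version 8.1.1.1, whereas the submitters' processing notes name 9.1. The deposited processed intensity of each channel was used to describe the arrays and to find the brightest probe, with a median Cy5 intensity of 1000.1 to 1526 on the 4 p38α-/- arrays compared here. The authors also deposited a table of log2 ratios, used as an alternative, whose values per array had medians from -0.06 to 0.03 and correlated with the log ratios at r = 0.785 to 0.952 in the same direction, so direction and log2 scale were read from this match while the filter behind it is not given in the sources used here.

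Log10 ratios were converted to log2, control and outlier spots were left out, spots were averaged per probe and probes per gene name of the array design (21689 genes, of which 19949 had a present symbol in the RefSeq table). A linear model of 15 group means over all 30 arrays was fitted with limma 3.58.1 in R 4.3.3, with Benjamini-Hochberg adjusted p-values over all genes measured on every array of a comparison and a threshold of 0.05. Tables and plots were made with Python 3.11.15, pandas 2.3.3, numpy 2.4.6 and matplotlib 3.10.9. The scripts were tested on simulated data. With 2 arrays a group, the number of arrays limits the precision.

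Same-numbered p38α-/- arrays deviated together (6 of 6 pairs of groups with r over 0.1, from 0.15 to 0.45), as did wild type arrays (55 of 55, from 0.13 to 0.65) but not arrays across genotypes (6 of 44), so the replicate block was fitted within each genotype as an alternative. Other alternatives were normexp with an offset of 50 and loess, the deposited log2 table, the brightest probe, a filter on dim probes, outlier spots kept, median centring, fewer arrays and other thresholds. Alternatives on shared probes, on outlier spots together with the block, on the second TNFα array and on the wild type control were chosen after seeing the data.

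The text names Mapk14, the up to 16 largest rises and 10 largest falls past the test, Jun, Btg2, Ptgs2 and Tnfaip3, up to 4 members of each list with the smallest p, the 10 genes highest in wild type MEFs, the 8 with the smallest adjusted p in each direction of the genotype difference, and the 6 with the smallest p against TNFα. The gene lists and the comparisons were chosen with earlier results of these data known. Osmostress arrays entered the fit, the range of Mapk14, the correlations between same-numbered arrays and the count over arrays of other groups, and were not compared here.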

Additional observations from a re-analysis of the deposited data

Results flagged for a closer look

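The difference of anisomycin induction between p38α-/- and wild type MEFs was past the limma threshold for 18 genes in one direction and 58 in the other, of which the 8 with the smallest adjusted p in each direction are given here together with Egr1 and Lrch3, all on the log2 scale. Lower in p38α-/- MEFs were Btg2 (-2.53), Egr1 (-2.09), Rhob (-1.83), 3110018C07Rik, the array's name for Spag9 (-1.56), 2410129E14Rik (-1.29), Gdap10 (-1.23), Cxxc4 (-1.16), Zfp235 (-0.994) and Blr1 (-0.921). Higher were Foxe1 (3.73), Atoh7 (3.13), 2610304G08Rik (2.15), Tceb3bp1 (1.84), Lrch3 (1.49), Iqcd (1.41), Tsfm (1.26), BC016076 (1.01) and Vsig2 (0.839). Against wild type MEFs with SB203580 alone in place of the pool, 3110018C07Rik kept a value of -1.53 (limma adjusted p = 0.595) while 2410129E14Rik gave -0.01, and none of these passed the threshold. Foxe1 and Atoh7 were not well above background on either wild type anisomycin array, so their wild type levels there are only upper bounds, and Atoh7 was also not well above background on 1 untreated and 1 anisomycin p38α-/- array, so its difference has no bound. A gene called higher here need not rise in p38α-/- MEFs. Anisomycin minus untreated was 0.09 for Foxe1, 0.15 for BC016076, 0.24 for 2610304G08Rik and 0.25 for Tsfm, and none of these 4 passed that test. With outlier spots kept, the genotype difference shrank to 0.73 for Iqcd, 0.61 for Vsig2 and 1.82 for 2610304G08Rik, and each still passed.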

How the results depend on the processing

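The 13 higher genes in p38α-/- MEFs became 2 with the 8 p38α-/- arrays alone, 3 with these and the replicate block, 0 with the 4 arrays alone (213 at an unadjusted p under 0.05 by limma), 20 with outlier spots kept and the replicate block within each genotype, and 5 to 12 when arrays were left out in turn. The block alone changed no call among the 14 names and added 2610528E23Rik. The single lower gene became 0 with normexp, with 8 or 4 p38α-/- arrays alone, with the block on 8 arrays, with the block without the second TNFα array and at 4-fold with no test, 2 with outlier spots kept and the block, and 0 to 5 with arrays left out (158, 182, 136, 258 and 353 lower at an unadjusted p under 0.05 by limma in the first 5). In place of 18 genes with lower induction than in wild type MEFs, the total was 86 with normexp, 535 with the series matrix, 177 with outlier spots kept, 180 with the replicate block, 557 with both, 0 with SB203580 alone as control (187 at an unadjusted p under 0.05), 1 with that and outlier spots kept, and 1 to 75 with arrays left out. In place of 58 higher ones the totals in the same order were 227, 873, 1385, 260, 2235, 0 (202), 0 (254 at an unadjusted p under 0.05) and 5 to 132, with 37 on shared probes and 115 at 2.5-fold with no test. The 11 genes against TNFα became 72 with the series matrix, 24 with outlier spots kept, 42 with the block as well, 0 with 8 arrays (468 at an unadjusted p under 0.05), 3 with 8 arrays and the block, 0 with 4 arrays (462 likewise), and 8 to 57 with arrays left out. The 60 wild type genes became 30 with normexp, 95 with the block, 103 with the block and outlier spots kept, and 36 to 120 with an array left out, and the 6 of them called in p38α-/- MEFs became 12 with the series matrix, 10 with outlier spots kept, 11 with the block as well, 1 and 2 with 8 arrays without and with the block, 0 with 4 arrays (17 at an unadjusted p under 0.05), and 2 to 8 with arrays left out. The genotype difference of Jun turned to 0.23 with SB203580 alone as control, with or without outlier spots, as did those of Fos (0.92), Jund1 (0.05), Ier3 (-0.04) and Klf6 (-0.08) with outlier spots kept on both sides, and that of Tnfaip3 (from -0.34 to 0.01). That of Dusp8 turned to 0.25, 0.23 and 0.14 without the first anisomycin p38α-/-, untreated p38α-/- or anisomycin wild type array (range -0.31 to 0.25). The cause was not tested, except that fewer arrays leave fewer degrees of freedom. Over single genes, 374 of 455 values of the p38α-/- difference kept their direction and side of the threshold, 77 fell under it and 4 rose past it.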
